A study of Mus musculus with 2 samples.

Results

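The WNT ligands, receptors and modulators described here are 57 of the 21474 protein-coding genes measured in mouse forebrain at embryonic day 11.5. They were chosen by gene name alone, in both deposited gene tables. The rule took every Wnt and Frizzled (Fzd) gene and the coreceptors Lrp5 and Lrp6. Of secreted inhibitors it took those named Sfrp or Dkk, with Wif1 and Notum. It also took the R-spondins, their receptors Lgr4 to Lgr6, the ubiquitin ligases Znrf3 and Rnf43, Ctnnb1, Apc, Axin1 and Axin2, and the nuclear factors Lef1, Tcf7 and Tcf7l1. Their names give 9 classes by role, and the classes were compared by counts and levels.

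The study sequenced total RNA from healthy forebrain of the B6NCrl strain, with no genetic change or treatment named. It held 1 group of 2 libraries, replicate 1 from a pool of 109 embryos and replicate 2 from a pool of 88 embryos, both of mixed sex. The input was 10 ng of RNA above 200 nucleotides a library, and the gene tables summed to 23165260 expected counts on mouse genes in replicate 1 and 33597028 in replicate 2. No second tissue, age or treatment was sequenced, so no comparison between conditions was made and no p-value is given.

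WNT proteins are lipid-modified secreted signals that bind a Frizzled receptor together with Lrp5 or Lrp6. In the canonical branch this stops a destruction complex, built on the axins and Apc, from marking β-catenin for degradation, and β-catenin then acts with TCF/LEF factors on target genes. R-spondins strengthen the signal by removing the ligases Znrf3 and Rnf43, which otherwise clear Frizzled from the cell surface. In the embryonic forebrain, WNT signals from the dorsal midline, above all the cortical hem, pattern the dorsal telencephalon and the hippocampal primordium.

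Levels are TPM, the deposited length-scaled transcript abundance, given for replicate 1 and then replicate 2, or as mean ± SD (n = 2). A member counts as detected at 1 TPM or more in both libraries. Of the 57 members, 42 (73.7%) were detected, beside 58.6% of all protein-coding genes. The median level of the members was 2.96 on the log2(TPM + 1) scale, with 2.95 in replicate 1 and 2.97 in replicate 2, beside 2.30 over all protein-coding genes. No member was detected in 1 library alone, and 31 members reached 5 TPM in both.

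The tissue is a whole dissection, so each level is a sum over its cell types, and fewer cells of a type and less RNA per cell cannot be told apart. The telencephalon markers Lhx2, Pax6, Emx2, Dlx2 and Emx1 were detected, with 147 ± 10.9 TPM for Lhx2 and 51.6 ± 2.12 TPM for Emx1, so markers of the labelled tissue were present. Markers of other cells were present too. All 11 mesenchyme markers summed to 734 and 746 TPM and all 6 endothelial markers to 91.7 and 92.5 TPM. Of 8 surface ectoderm markers 7 were detected, and the 8 summed to 50.1 and 48.2 TPM. All 6 diencephalon markers summed to 200 and 208 TPM, of which Tcf7l2 gave 112.50 and 116.48 TPM. Of 6 midbrain and hindbrain markers only Gbx2 was detected, and the list summed to 6.69 and 4.98 TPM. The part of these other cells in the WNT levels was not tested.

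**Figure D1:**
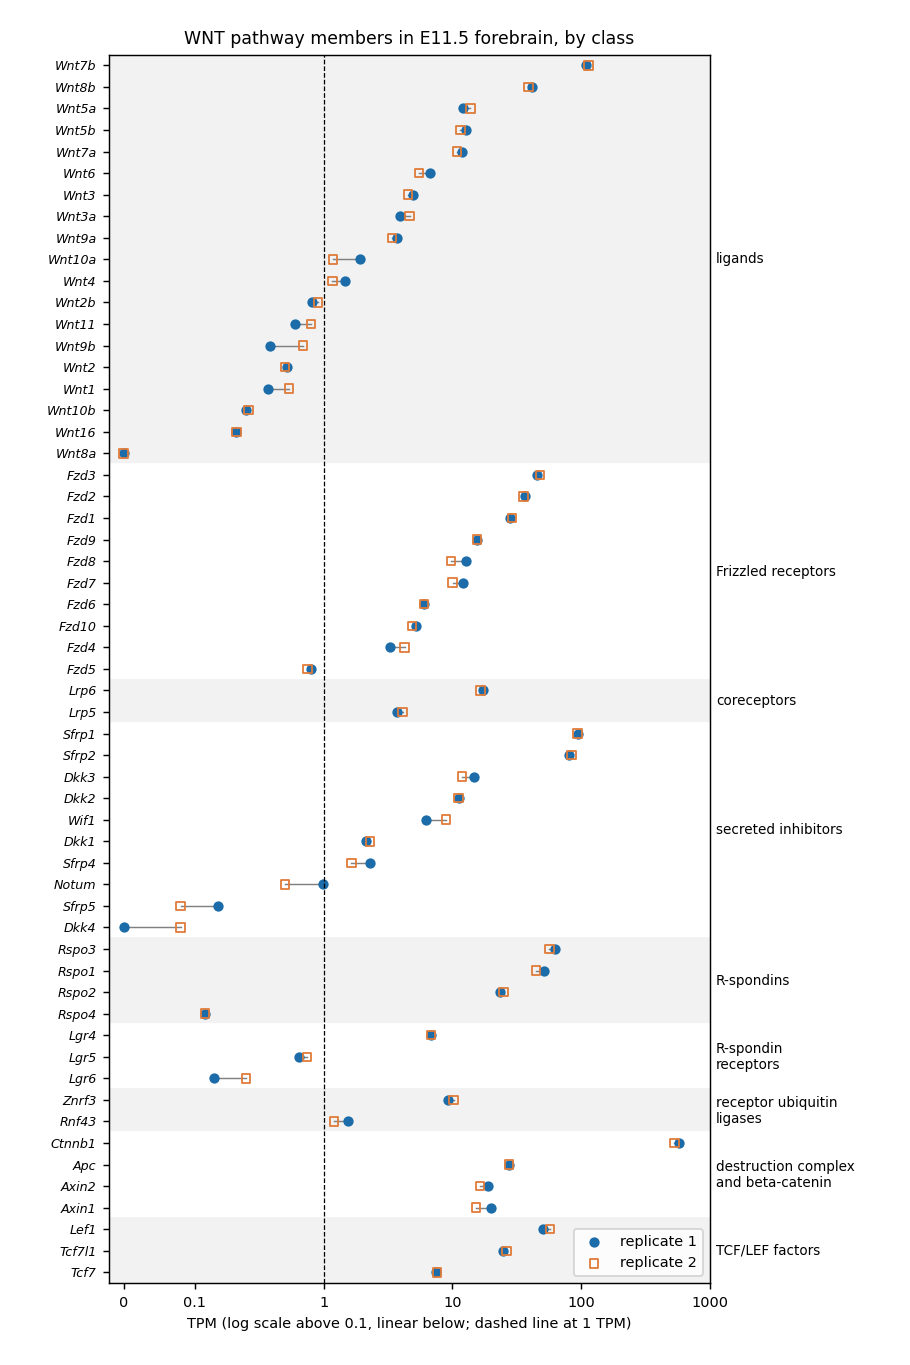
The plot gives the TPM of each of the 57 members in replicate 1 (filled circles) and replicate 2 (open squares), grouped by class and ordered by mean level, on an axis that is logarithmic above 0.1 TPM and linear below. Levels ran from 0 TPM for Wnt8a to 551 TPM for Ctnnb1. No member with 500 or more counts summed differed by 1.5-fold between the libraries. Few protein-coding genes at that depth did (15 higher and 10 lower in replicate 1, of 10176).

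The ligand class had 1 dominant transcript and a long tail. Of 19 Wnt genes, 11 (57.9%) were detected, a share close to the 58.6% of all protein-coding genes, and the class median was 1.33 on the log2(TPM + 1) scale. Wnt7b, a canonical ligand made by embryonic neuroepithelium that also acts on brain vessels, had 108.71 and 114.38 TPM (chr15:85535437-85582473, minus strand, GRCm38). It made up 51.1% and 53.5% of all ligand TPM. Wnt8b, whose expression in the forebrain is known from the hippocampal primordium, followed with 41.33 and 39.07 TPM (chr19:44493472-44514273, plus strand). The libraries did not overlap between these ligands, and the Wnt7b level was 2.78 ± 0.210 times that of Wnt8b. Together they held 71.1% ± 0.814 of the ligand sum of 213 and 214 TPM.

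A middle tier of ligands lay far below Wnt7b. Wnt5a, a ligand best known for signalling without β-catenin, had 12.17 and 13.82 TPM. Its paralog Wnt5b had 12.77 and 11.53 TPM, and Wnt7a, the close relative of Wnt7b, had 11.88 and 10.86 TPM. Wnt5a and Wnt5b changed order between the libraries, while Wnt7a was the lowest of this tier in each. The library ranges of Wnt5b and Wnt7a still overlapped. The Wnt7b level was 9.84 ± 0.977 times that of Wnt7a.

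Ligands between 1 and 7 TPM included canonical signals of the dorsal midline and of surface ectoderm. Wnt6 had 6.72 and 5.48 TPM, Wnt3 had 4.92 and 4.50 TPM, and Wnt3a, a ligand of the cortical hem that the hippocampus needs, had 3.91 and 4.66 TPM. Wnt9a had 3.70 and 3.41 TPM, Wnt10a had 1.90 and 1.18 TPM, and Wnt4 had 1.47 and 1.17 TPM. Wnt3 and Wnt3a overlapped between libraries, as did Wnt10a and Wnt4, while Wnt6 stood above Wnt3 and Wnt9a below Wnt3a in both. Wnt6 and Wnt10a are also known from embryonic ectoderm, and 7 of the 8 surface ectoderm markers given above were detected. Which cells gave the Wnt6 and Wnt10a transcripts was not tested.

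The other 8 ligands were under 1 TPM in both libraries. Wnt2b, another hem ligand, had 0.81 and 0.90 TPM, and Wnt11 had 0.60 and 0.80 TPM. Wnt9b, Wnt2 and Wnt1 had between 0.37 and 0.69 TPM with overlapping ranges, Wnt10b had 0.25 and 0.26 TPM, and Wnt16 had 0.21 TPM in both, with a mean of 0.720 by posterior mean TPM. Wnt1, the ligand of the boundary between midbrain and hindbrain, stood at 0.37 and 0.54 TPM beside En1, a marker of the same region, at 0.91 and 0.86 TPM. Wnt8a, a ligand of the early gastrula, had 0 counts in both libraries, and a count of 0 allows up to 0.119 TPM in replicate 1 and 0.0824 TPM in replicate 2 (3 counts per library, counting error only).

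Several ligands lie beside each other in the genome, some at like levels and some not. Wnt6 and Wnt10a, on the same strand of chromosome 1 with 6.19 kb between them, averaged 6.10 ± 0.877 and 1.54 ± 0.509 TPM. Wnt3 and Wnt9b, head to head on chromosome 11 with a gap of 24.3 kb, averaged 4.71 ± 0.297 and 0.535 ± 0.219 TPM. Wnt3a and Wnt9a, head to head 16.2 kb apart on the same chromosome, lay closer at 4.29 ± 0.530 and 3.56 ± 0.205 TPM. Wnt1 and Wnt10b, head to head 11.7 kb apart on chromosome 15, were both low at 0.455 ± 0.120 and 0.255 ± 0.00707 TPM. These are the 4 pairs of members within 100 kb of each other.

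**Figure D2:**
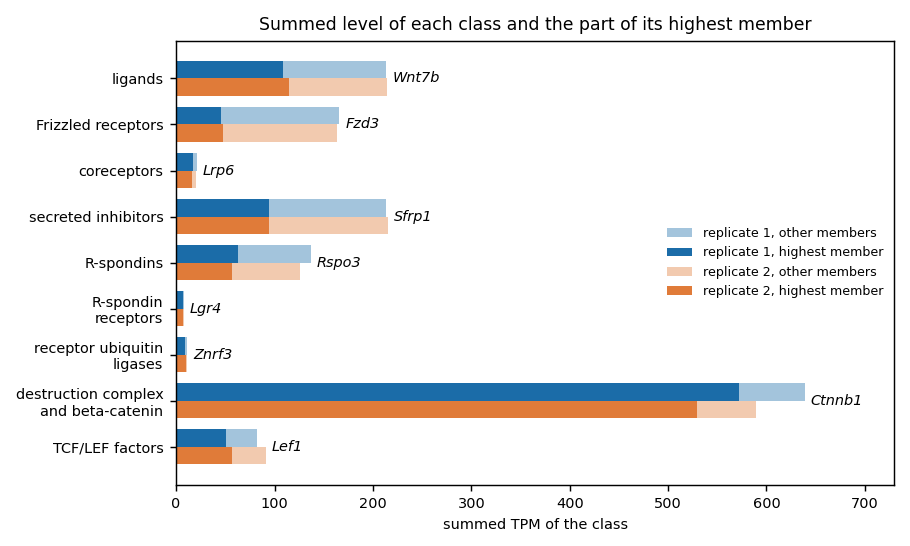
Bars give the summed TPM of each class in replicate 1 (upper bar, blue) and replicate 2 (lower bar, orange), with the highest member in the dark colour and the other members in the light one. The secreted inhibitors of the name rule (213 and 215 TPM) summed to about the same as ligands (213 and 214 TPM). Ctnnb1 made up most of the destruction complex and β-catenin class.

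Of 10 Frizzled receptors 9 were detected, beside 58.6% of all protein-coding genes. The class median was 3.60 on the log2(TPM + 1) scale. Fzd3, a receptor of axon growth and planar polarity, had 45.69 and 47.74 TPM. Fzd2 had 36.63 and 35.75 TPM, and its relative Fzd1 had 27.86 and 28.92 TPM. These highest members did not overlap with each other and held 67.6% ± 1.62 of all Frizzled TPM, so no single receptor dominated as Wnt7b did among the ligands.

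The remaining Frizzled genes formed a gradual slope. Fzd9 had 15.41 and 15.54 TPM, Fzd8 had 12.83 and 9.78 TPM and Fzd7 had 12.14 and 10.04 TPM, with Fzd8 and Fzd7 overlapping between libraries. Fzd6, which acts with Fzd3 in planar polarity, had 6.02 and 5.99 TPM, and Fzd10 had 5.25 and 4.84 TPM. Fzd4, which also serves as the receptor of norrin in retinal vessels, had 3.25 and 4.25 TPM. Fzd5, a receptor of the developing eye, was the only one not detected, at 0.80 and 0.75 TPM, just under the threshold of 1 TPM.

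The coreceptors were unequal. Lrp6 had 17.18 and 16.49 TPM and Lrp5 had 3.70 and 4.11 TPM, a ratio of 4.33 ± 0.446. Summed Frizzled levels were 7.94 ± 0.00191 times the summed coreceptor levels and 0.772 ± 0.0110 times the summed ligand levels.

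Secreted inhibitors were led by a pair of Frizzled-related proteins, which bind WNT ligands outside the cell. Sfrp1 had 94.33 and 93.91 TPM and Sfrp2 had 80.37 and 84.39 TPM, and together they held 82.6% ± 0.609 of the inhibitor sum. Reads of Sfrp2 are less certain, because the antisense gene Gm26771 overlaps 16.1% of its exon bases and its counts were not whole. Gm26771 itself had 1.69 and 2.18 TPM.

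The other inhibitors were far lower. Dkk3, a divergent member of the Dickkopf family, had 14.80 and 11.84 TPM, and Dkk2, a ligand of Lrp5 and Lrp6, had 11.35 and 11.20 TPM. Wif1, which binds WNT proteins, had 6.29 and 8.91 TPM. Dkk1, the Dickkopf that blocks Lrp5 and Lrp6 and that head formation needs, had 2.14 and 2.29 TPM, overlapping with Sfrp4 at 2.29 and 1.64 TPM. Below the threshold were Notum, an enzyme that removes the lipid from WNT proteins, at 0.99 and 0.50 TPM, Sfrp5 at 0.15 and 0.08 TPM, and Dkk4 with 0 counts in replicate 1 and 2 counts in replicate 2. Over the 10 genes, 7 were detected, beside 58.6% of all protein-coding genes, and the median was 2.39 on the log2(TPM + 1) scale. The summed inhibitor level was 1.00 ± 0.00261 times the summed ligand level, a ratio of transcripts and not of proteins. This sum holds only the 10 genes of the name rule. It leaves out the list of other inhibitors given below, such as Frzb at 13.47 and 15.57 TPM, so the ratio depends on that choice.

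R-spondins were high and their best-known receptors low. Rspo3, a hem R-spondin, had 62.70 and 56.76 TPM, Rspo1 had 51.25 and 44.49 TPM and Rspo2 had 23.42 and 24.88 TPM. These 3 did not overlap between libraries and put the class median at 5.13 on the log2(TPM + 1) scale, the highest of the 9 classes. Rspo4 had 0.12 TPM in both libraries. Among the receptors, Lgr4 had 6.77 and 6.81 TPM, Lgr5 had 0.64 and 0.74 TPM and Lgr6 had 0.14 and 0.25 TPM. Summed R-spondins were 17.2 ± 1.43 times the summed receptors and 0.618 ± 0.0400 times the summed ligands.

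The Lgr5 call depended on which deposited estimate was read. Its posterior mean TPM, a second estimate in the same tables, was 1.34 and 1.17, above the threshold in both libraries, and Lgr5 had 45.0 and 75.0 counts. Of the ligases, Znrf3 had 9.24 and 10.22 TPM and Rnf43 had 1.55 and 1.20 TPM, a ratio of 7.24 ± 1.81. With posterior mean TPM the Rnf43 level was 2.13 on average and this ratio was 4.55 ± 1.11. Both classes that act on R-spondin signals therefore had 1 leading member, Lgr4 and Znrf3.

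Ctnnb1, which encodes β-catenin, a coactivator and also a part of adherens junctions, was the highest member at 572.75 and 530.03 TPM (chr9:120929216-120960507, plus strand). It made up 38.5% and 36.8% of the TPM of all 57 members. Exons of Ulk4 on the opposite strand overlap 14.6% of its exon bases, and Ulk4 had 4.80 and 6.27 TPM. Apc had 27.64 and 27.56 TPM, which puts the Ctnnb1 level at 20.0 ± 1.05 times that of Apc. Axin1, the constant scaffold of the complex, had 19.80 and 15.31 TPM, and Axin2, the feedback inhibitor that WNT signalling itself induces, had 18.85 and 16.45 TPM. Axin1 and Axin2 overlapped between libraries, with a ratio of 0.991 ± 0.0846.

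All 3 TCF/LEF members were detected. Lef1, an activator that is itself a reported WNT target, had 50.49 and 57.24 TPM (chr3:131110471-131224356, plus strand). Tcf7l1, mostly a repressor, had 24.66 and 26.30 TPM, and Tcf7 had 7.48 and 7.58 TPM. The order did not change between libraries, and the Lef1 level was 7.15 ± 0.567 times that of Tcf7. The fourth factor of the family, Tcf7l2, which the name rule does not take, had 112.50 and 116.48 TPM. It is also 1 of the 6 diencephalon markers given above and made up most of their sum of 200 and 208 TPM, so that list is not a separate measurement.

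Over the 9 classes, detection was complete for coreceptors, ligases, destruction complex and β-catenin, and TCF/LEF factors. It was 9 of 10 for Frizzled receptors, 3 of 4 for R-spondins and 7 of 10 for secreted inhibitors. For ligands it was 11 of 19 and for R-spondin receptors 1 of 3. The share over all protein-coding genes was 58.6%. Medians on the log2(TPM + 1) scale were 4.73 for TCF/LEF factors, 4.53 for destruction complex and β-catenin, 3.22 for coreceptors, 2.33 for ligases and 0.76 for R-spondin receptors. Ligands and R-spondin receptors were the classes below the 2.30 of all protein-coding genes. Among 48 neighbouring pairs in the order of levels within classes, 11 overlapped between libraries, and the others kept their order in both. A pair with overlapping ranges, such as Wnt5b and Wnt7a, can still keep its order within each library. Classes of 2 to 4 genes give a median that rests on 1 or 2 genes.

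Transcript models gave a second view of 3 members whose coding sequence is altered by an alternative exon. Inclusion is the TPM share with the exon among the annotated transcripts scored as holding or skipping it. It rests on the authors' division of reads among transcripts. In Lef1, a 41-base exon near the 3′ end of the coding sequence was included in 52.5% and 49.9%, so the data held both forms of the LEF1 C-terminus in nearly equal amounts. It carries 32 coding bases and then a stop codon, so its inclusion ends the protein earlier. The transcripts Lef1-202, with the exon and 1107 coding bases, and Lef1-204, without it and with 1152 coding bases, made up 44.9% and 44.9%, and 44.9% and 47.0%, of Lef1 TPM in replicates 1 and 2. A second Lef1 exon, of 84 bases and 28 codons, was included in only 5.06% and 1.97%.

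In Lgr4, an in-frame exon of 72 bases was included in 55.4% and 44.3% (49.9% ± 7.82), so which form was the larger differed between libraries. In Axin1, an in-frame exon of 108 bases was included in 79.9% and 74.4%. Axin1-201, which has it, held 70.8% and 66.8% of Axin1 TPM, and Axin1-203, which lacks it, held 17.8% and 23.0%. The exons are printed 5′ to 3′ from the GENCODE M21 transcripts (GRCm38, plus strand) because their presence is what differs between the forms. Capitals mark the stop codon that the 41-base exon of Lef1 brings, and the other exons hold none in frame.
Lef1 41-base exon, chr3:131204933-131204973: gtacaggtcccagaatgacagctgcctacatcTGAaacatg
Lef1 84-base exon, chr3:131191023-131191106: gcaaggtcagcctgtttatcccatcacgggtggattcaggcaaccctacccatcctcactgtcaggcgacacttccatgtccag
Lgr4 72-base exon, chr2:109970692-109970763: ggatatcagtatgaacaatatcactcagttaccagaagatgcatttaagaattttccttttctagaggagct
Axin1 108-base exon, chr17:26192516-26192623: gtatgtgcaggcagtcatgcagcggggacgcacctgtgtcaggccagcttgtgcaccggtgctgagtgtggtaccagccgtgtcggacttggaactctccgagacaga

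**Figure D3:**
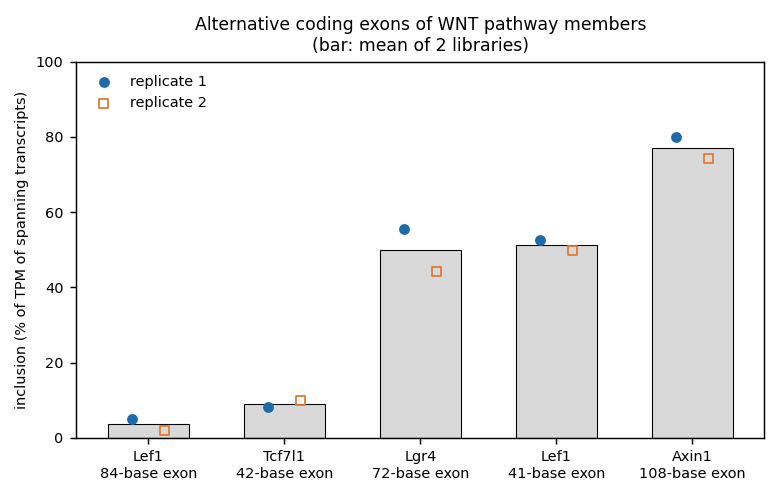
Inclusion of 5 alternative coding exons is plotted as percent of the TPM of transcripts scored as holding or skipping the exon. Replicate 1 is shown as filled circles, replicate 2 as open squares and the mean of both as bars. Drawn are exons that keep the frame or bring a stop codon, without those of high inclusion. The 165-base exon of Apc, which rests on Apc-204 and Apc-209 alone, is left out. The 41-base exon of Lef1 and the 72-base exon of Lgr4 lay near the middle of the scale, and the 84-base exon of Lef1 (5.06% and 1.97%) near its floor.

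Some members had transcripts with equal numbers of coding bases. Ctnnb1-214 held 54.8% and 59.7% of Ctnnb1 TPM and Ctnnb1-201 held 40.8% and 37.1%, with the same number of coding bases (2343). Tcf7-201 and Tcf7-202 likewise have 909 coding bases each, and Tcf7-201 held 70.7% and 83.2%. Fzd6-202 held 90.3% and 69.6%, and Fzd6-201, with the same number of coding bases (2127), held 9.65% and 30.4%. The coding sequences of these forms were not compared. Numbers of coding bases are from GENCODE M21. Ctnnb1-214, Fzd6-202, Apc-202 and Wnt5a-201 have another length in GENCODE M4, the annotation of the deposited values.

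Wnt5a, Wnt5b, Axin2 and Apc were among the members with forms that differ in coding length. Wnt5a-201, with 1140 coding bases, held 35.0% and 39.1% of Wnt5a TPM, and Wnt5a-202, with 1080 coding bases, held 39.1% and 42.8%. Their order turned round by expected counts, with 62.3% for Wnt5a-201 and 35.5% for Wnt5a-202 on average. Wnt5b-203, with 1116 coding bases, held 53.1% and 70.4%, and Wnt5b-202, with 963, held 26.5% and 29.6%. Axin2-201 held 46.4% and 50.1% of Axin2 TPM, while Axin2-203, a model without a coding sequence, held 25.7% and 23.6%. By expected counts the mean share of Axin2-201 was 75.2%. Wnt7b-201 held 91.8% and 92.3% of Wnt7b TPM, so 1 transcript made up most of the leading ligand.

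Apc-202, with 8526 coding bases, held 31.7% and 35.0% of Apc TPM, and Apc-203, with 8424 coding bases, held 39.1% and 34.2%. By expected counts Apc-203 averaged 57.3% and Apc-202 averaged 37.3%. An Apc exon of 165 bases that brings a stop codon was scored from Apc-204, which has it, against Apc-209 alone. Between these it was included in 67.2% and 79.0% by TPM, but in 23.0% and 35.4% by expected counts. Apc-202 and Apc-203 did not enter, so this is not a share of all Apc RNA, and it also depends on the unit. Tcf7l1 included a 42-base exon in 8.27% and 9.85% by TPM and in 5.20% and 6.23% by expected counts. Lrp5-201, with 4842 coding bases, held 79.5% and 59.6% of Lrp5 TPM, and Lrp5-202, with 1854, held 17.8% and 18.7%. Lrp6-201 held 88.4% and 93.8% of Lrp6 TPM. Rnf43 shares differed widely between libraries, with 33.5% and 17.5% for Rnf43-201 and 20.0% and 50.8% for Rnf43-206, a model with a retained intron, on 54.0 and 75.0 counts in all.

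The 2 pools of embryos differed by less than 1.5-fold in most of these genes. The ratio of replicate 1 to replicate 2 was computed from TMM-scaled expected counts for the 54 members with 10 or more counts summed. Its median was 0.00 on the log2 scale, with a range of -1.47 to 0.68. The median of protein-coding genes was also 0.00. TMM scaling centres most genes there, so that median does not measure how alike the pools are. With 1 library on each side the ratio has no replicate check. Past 1.5-fold, 1 of the 54 members was higher in replicate 1, beside 644 of 14966 protein-coding genes (4.30%). Lower were 2 of the 54, beside 715 of 14966 (4.78%). Wnt10a, with 69.0 counts in replicate 1 and 62.0 in replicate 2, had a log2 ratio of 0.68 (counting interval 0.17 to 1.20, 95%). Wnt9b, with 26.0 and 67.0 counts, had -0.83 (-1.55 to -0.16), and Lgr6, with 9.00 and 37.0 counts, had -1.47 (-2.75 to -0.43).

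All of these are members of few reads. Among the 34 members with 500 or more counts summed, none passed 1.5-fold, and ratios ran from -0.44 for Wif1 to 0.39 for Fzd8. Smaller differences beyond counting error did occur among these, with counting intervals of -0.68 to -0.19 for Wif1 and 0.23 to 0.55 for Fzd8. The interval of Sfrp1, -0.04 to 0.05, included equal levels. At the same depth 15 of 10176 protein-coding genes were higher and 10 were lower, so few genes of any kind passed. The list of hem and roof plate markers shares Rspo3, Wnt3a and Wnt2b with the members. In this list Bmp6 and Gdf7 were higher in replicate 1, at 3.14 and 1.72 TPM and at 0.60 and 0.03 TPM. Both had fewer than 500 counts summed, and Gdf7 was under 1 TPM in both libraries. They stand beside genes with 10 or more counts summed, of which 644 of 14966 (4.30%) were higher. Wnt3a had a log2 ratio of -0.26 and Rspo3 of 0.14. Whether the pools differed in hem or roof plate was not tested. The 10 markers summed to 244 and 240 TPM.

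**Figure D4:**
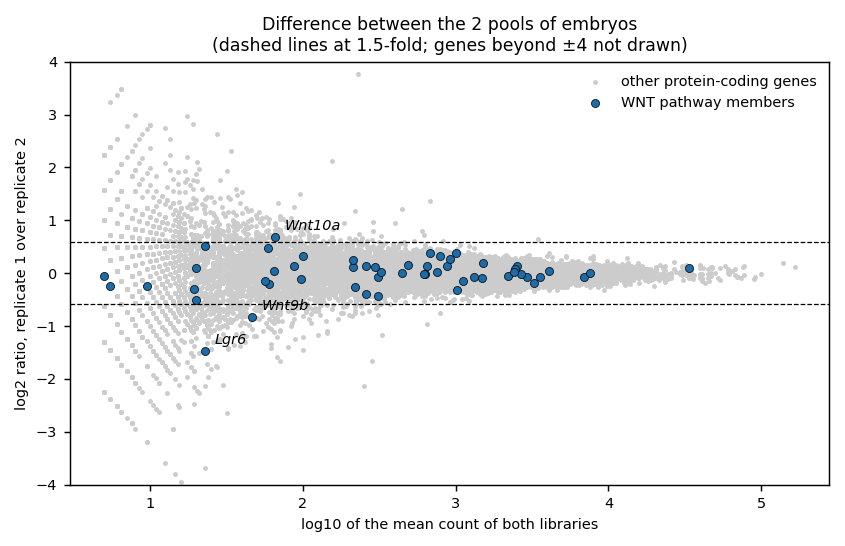
Each point is a protein-coding gene with 10 or more counts summed, with the log10 of its mean count on the x axis and the log2 ratio of replicate 1 over replicate 2 on the y axis, members in blue and dashed lines at 1.5-fold. The 3 labelled members past the lines, Wnt10a, Wnt9b and Lgr6, lie at the low-count end where grey points spread widely too.

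The surrounding pathway was present in depth, and the detection counts of its lists stand beside 58.6% of all protein-coding genes. Of the ligand secretion genes, Wls, the carrier that takes WNT proteins to the cell surface, had 78.28 and 75.26 TPM, and Porcn, the enzyme that adds their lipid, had 10.73 and 11.51 TPM. All 15 cytoplasmic transducers were detected, led by the casein kinases Csnk1a1 (246 ± 11.8 TPM), Csnk1e (164 ± 2.26 TPM) and Csnk1d (81.1 ± 0.884 TPM) and by Gsk3b (85.4 ± 2.31 TPM). All 12 nuclear cofactors were detected too, led by the corepressor Hdac1 (215 ± 11.1 TPM) and by Tcf7l2. They were followed by Cby1 and Ctnnbip1, which bind and inhibit β-catenin, at 64.7 ± 1.82 and 55.0 ± 0.297 TPM.

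All 15 genes of the list of other receptors and planar polarity proteins were detected. The glypicans Gpc3 and Gpc4, which hold WNT proteins at the cell surface, averaged 144 ± 5.39 and 64.0 ± 0.170 TPM, ahead of the polarity genes Celsr2 at 47.9 ± 9.07 and Vangl2 at 37.1 ± 1.37 TPM. Of 15 measured genes in the list of other inhibitors 11 were detected, led by Shisa2 (42.6 ± 0.552 TPM), Tpbg (28.8 ± 3.15 TPM), Nkd1 (28.7 ± 2.78 TPM) and Frzb (14.5 ± 1.48 TPM). None of the genes in these 5 lists with 10 or more counts summed differed by 1.5-fold between libraries. Of 14966 protein-coding genes at the same filter, 644 (4.30%) were higher and 715 (4.78%) lower in replicate 1. With 500 or more counts summed, 15 were higher and 10 lower of 10176. Dkkl1, Cer1 and Sost had fewer counts, and no ratio was computed for them.

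Reported WNT targets were mostly detected, 10 of 12, beside 58.6% of all protein-coding genes. Ccnd1, a D-type cyclin with many other inputs, had 202.55 and 180.07 TPM, followed by Lef1, Nkd1 and Axin2. The targets under the threshold were Notum and Lgr5. The list shares 7 genes with the members (Lef1, Axin2, Znrf3, Tcf7, Rnf43, Notum and Lgr5), so it is not a separate measurement.

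Promoter sequence was looked at for the 36 members with an entry in the RefSeq table (GRCm38.p6, 250 bases before to 50 after the start). The ratio of CpG pairs observed to those expected from base content had a median of 0.78, beside 0.38 for all 32817 promoters of the table. A ratio of 0.6 or more was found in 30 of 36 (83.3%), beside 35.8% of all promoters. The sets are unlike, because the 36 are protein-coding genes with 1 window each and the 32817 are all entries. A background of protein-coding genes alone was not computed. Detected members did not stand out from the others, with 84.0% of 25 detected and 81.8% of 11 not detected members at or over 0.6. A TCF/LEF motif, CTTTGAT or CTTTGAA, which share all but the last letter, on either strand, was in 2 of 36 windows (5.56%; Dkk1 and Wnt11), beside 8.65% of all promoters.

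A pair of ligand promoters is printed because the more highly expressed gene has the fewer CpG pairs, and both were chosen after their values were seen. Wnt8b, the second-highest ligand at 40.2 TPM, has 6 CpG pairs and a ratio of 0.35. Wnt1, at 0.455 TPM, has 26 CpG pairs and a ratio of 0.70, which is below the median of the 36. Capitals mark each CpG pair, and both read on the plus strand.
Wnt8b promoter, chr19:44493222-44493521: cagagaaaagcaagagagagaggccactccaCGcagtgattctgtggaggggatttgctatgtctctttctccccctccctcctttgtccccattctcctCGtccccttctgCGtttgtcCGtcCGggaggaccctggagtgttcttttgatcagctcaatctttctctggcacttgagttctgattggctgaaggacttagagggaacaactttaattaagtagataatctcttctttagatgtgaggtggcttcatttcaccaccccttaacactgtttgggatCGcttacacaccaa
Wnt1 promoter, chr15:98789607-98789906: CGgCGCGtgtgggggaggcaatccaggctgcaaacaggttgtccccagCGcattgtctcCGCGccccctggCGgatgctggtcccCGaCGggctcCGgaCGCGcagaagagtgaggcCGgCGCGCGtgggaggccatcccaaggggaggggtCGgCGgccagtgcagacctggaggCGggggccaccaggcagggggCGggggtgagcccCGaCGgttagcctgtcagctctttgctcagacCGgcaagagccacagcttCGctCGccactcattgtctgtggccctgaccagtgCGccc

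**Figure D5:**
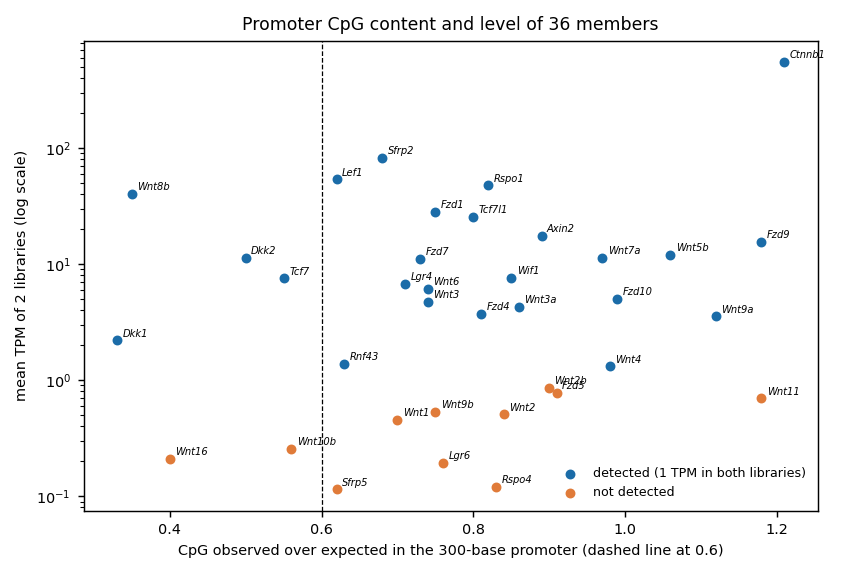
Points are the 36 members with a RefSeq promoter, with the CpG observed over expected ratio on the x axis and mean TPM on a logarithmic y axis, blue for detected and orange for not detected members. Members not detected spread over the same CpG range as detected ones (0.40 to 1.18, against 0.33 to 1.21).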

How the data were processed

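Per the labels, mirVana was used for RNA extraction, with added spike-ins and a SMART-seq protocol. The deposited text notes name mm10 and GENCODE M4 for alignment. For the aligner, the quantifier and strand handling: not given in the sources used here. Expected counts per gene and per transcript were estimated by the authors, who divided reads that fit several transcripts. The deposited TPM are length-scaled shares of all entries, spike-ins included, and spike-ins took 13.0% and 12.7% of TPM. The authors also deposited FPKM, scaled by length and depth, and, per the file headers, a posterior mean TPM with interval bounds of unstated level.

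Genes were named by identifier from GENCODE M21 (GRCm38), which matched 42462 of 43346 Ensembl entries. The members and lists were chosen with earlier results of these data known. Every member is accounted for. Of each pathway list the 4 highest genes and those past 1.5-fold are named. Isoforms at 20% or more of their gene were to be named for Lef1, Tcf7, Tcf7l1, Ctnnb1, Axin1, Axin2, Wnt7b, Rspo3 and Fzd and Lrp members with several such transcripts, and other isoforms named were chosen after their values were seen. Tcf7l2 isoforms were not analysed here. Expected counts were rounded and scaled by TMM (edgeR 4.0.16, R 4.3.3, prior of 0.5 counts), with size factors of DESeq2 1.42.0 as an alternative. The ratio step was tested on simulated data. Counts of 5 members (Wnt5a, Fzd5, Sfrp2, Notum and Ctnnb1) were not whole, with a tolerance of 0.005. Of the listed genes, Tiki1 had no match by symbol. A listed marker gene is not reported here. Exons of 10 members overlap a gene on the opposite strand, and their reads cannot be told apart where strand is unused (Axin2, Ctnnb1, Fzd5, Fzd6, Notum, Sfrp2, Tcf7l1, Wnt11, Wnt5a and Wnt7b). The labels name the libraries biological replicates. Counting intervals cover counting error only. Alternatives were other units, thresholds, pseudocounts, filters, scalings and single libraries.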

Additional observations from a re-analysis of the deposited data

How the results depend on the processing

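No paired analysis was possible because there was 1 group. With a threshold of 5 TPM, 6 ligands, 1 coreceptor and 1 ligase remained above it. R-spondin receptors detected were 2 with posterior mean TPM, a threshold of 0.5 TPM or 10 or more counts. Rescaled FPKM, which raised detected members by a median factor of 1.15, gave median levels of 3.14 for all members, 3.40 for coreceptors, 2.54 for secreted inhibitors, 5.32 for R-spondins, 0.84 for R-spondin receptors, 2.48 for ligases, 4.72 for destruction complex and β-catenin and 4.92 for TCF/LEF factors. A pseudocount of 0.1 TPM gave 2.78 for all members, 0.68 for ligands, 3.04 for coreceptors, 2.07 for inhibitors, -0.34 for R-spondin receptors and 1.92 for ligases. Keeping members of 1 TPM or more, which leaves fewer genes, gave 3.67 for all, 2.82 for ligands, 3.62 for inhibitors, 5.61 for R-spondins and 2.96 for R-spondin receptors. Posterior mean TPM gave 1.17 for R-spondin receptors and 2.52 for ligases. Single libraries gave 2.95 to 2.97 for all members. Members higher in replicate 1 were 2 with no count filter or with TPM ratios and 0 at 2-fold, and 1 was lower at 2-fold. With shares of expected counts, 14 of 30 isoform shares and 7 of 14 exon inclusions moved by more than the spread between libraries. Posterior mean TPM put Lgr6 at 0.430 TPM on average, against 0.195 TPM. Exon inclusion, the Znrf3 over Rnf43 ratio and their alternatives were added after seeing the data.

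Of the 57 members, 50 had 10 or more counts in both libraries, 8 of them members not detected at 1 TPM.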

Other observations

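Brain vessels respond to Wnt7a and Wnt7b through a receptor complex of Reck and Adgra2 (Gpr124) on endothelial cells, as known from mouse. Both partners were chosen here after their values were seen. Reck had 9.30 and 8.91 TPM and Adgra2 had 1.92 and 2.73 TPM, beside Wnt7b at 108.71 and 114.38 TPM. The endothelial receptor Kdr had 22.59 and 22.63 TPM.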
